A study of Mus musculus with 9 samples.

Results

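The 10 Toll-like receptors described here are *Tlr1* to *Tlr9* and *Tlr13*, taken as the rows of the deposited gene table whose Ensembl identifiers carry these symbols. They are 10 of the 54432 genes in the table. To enter the test a gene needed over 10 counts in 3 or more of the 9 libraries. All 10 receptors reached this limit, and none was therefore too low to test. The remaining mouse family members *Tlr11* and *Tlr12* had 0 counts in every library, which allows up to 3 counts in each.

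Toll-like receptors are membrane proteins of innate immune cells that bind molecules typical of microbes through an ectodomain of leucine-rich repeats. *Tlr1*, *Tlr2*, *Tlr4*, *Tlr5* and *Tlr6* encode receptors of the cell surface that bind lipopeptides, lipopolysaccharide or flagellin, and *Tlr3*, *Tlr7*, *Tlr8*, *Tlr9* and *Tlr13* encode receptors of the endosome that bind nucleic acids. Bound receptors recruit the adaptor MYD88 or, for TLR3 and internalized TLR4, TRIF, and signal to NF-κB, MAP kinases and interferon regulatory factors, which switch on cytokine and chemokine genes. Macrophages are among the cells best known for these receptors.

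The RNA came from RAW264.7 cells, a single mouse macrophage-like cell line used over a narrow range of passages. The 3 CTRL libraries came from untreated cells, the 3 VLDL-sized libraries from cells given 1 mM of an emulsion with droplets in the size range of very low-density lipoprotein for 6 hours, and the 3 CHYL-sized libraries from cells given 1 mM of an emulsion with chylomicron-sized droplets for 6 hours. Both emulsions were made of sunflower oil with sodium caseinate as the emulsifier, so the controls lacked oil and emulsifier alike, and the effect of either alone cannot be told apart. Samples of a condition within 1 experiment were pooled by the authors, so each library is 1 pool, and the p-values measure the spread between these pools of 1 cell line.

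Each library held between 22393893 and 22856792 estimated counts. The levels below are counts-per-million (cpm) scaled with TMM factors (trimmed mean of M-values), always given in the order of replicates 1, 2 and 3. The 8 macrophage marker genes were all tested, and their summed level was 6064 to 6185 cpm in the CTRL libraries, 5602 to 5783 cpm in the VLDL-sized and 5752 to 5886 cpm in the CHYL-sized libraries. After VLDL-sized particles 1 marker was called higher and 4 lower, where 35.6% of all genes were called. After CHYL-sized particles 0 were higher and 2 lower, against 25.7%. *Fcgr1* changed most among the markers, at log2 fold changes of -0.83 and -0.68. The part of the markers in the receptor results was not tested. Markers of B cells, T cells and epithelial cells had at most 7 counts in any library, and those of dendritic cells, neutrophils and fibroblasts summed to at most 2.82 cpm. Replicate 3 stood apart in every group, with a root mean square log2 difference of 0.370 to 0.397 from replicates 1 and 2 of its group, against 0.308 to 0.327 between those. In all 3 groups 5 receptors (*Tlr1*, *Tlr3*, *Tlr4*, *Tlr5* and *Tlr8*) were lowest in replicate 3, and 4 (*Tlr2*, *Tlr7*, *Tlr9* and *Tlr13*) were highest there. The share of all genes with such an order was not counted, so no trait of the receptors is read from it. Some ranks were close, as for *Tlr7* after VLDL-sized particles, at 96.8 cpm in replicate 2 and 97.3 in replicate 3. Receptor results whose call changes without replicate 3 are given with and without it.

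After VLDL-sized particles most of the receptor transcripts were lower than in CTRL. Among the receptors that passed the test, *Tlr5* and *Tlr8* fell furthest, *Tlr7* and *Tlr9* next and *Tlr3* and *Tlr4* least, whereas *Tlr6* rose. In total 7 of the 10 receptors passed at an adjusted p of 0.05, 6 lower and 1 higher, in a limma-voom fit whose p-values were adjusted by Benjamini-Hochberg over 12637 genes. Among all genes tested 35.6% passed in this comparison, 17.9% lower and 17.8% higher. The median log2 fold change of the receptors was -0.54, against -0.00028 over all genes. For 9 receptors the treated and CTRL libraries did not overlap in cpm, 7 lower and 2 higher, while 47.4% of all genes had no overlap. *Tlr2* and *Tlr13* were barely separate. For *Tlr2*, VLDL-sized replicate 3 had 135.05 cpm against 135.33 in CTRL replicate 1. For *Tlr13*, VLDL-sized replicate 1 had 443.61 cpm against 443.59 in CTRL replicate 3. Since each library is bulk RNA, less transcript in every cell and a loss of transcript in some of the cells cannot be told apart.

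CHYL-sized particles, compared with the same 3 CTRL libraries, also gave 7 receptors with an adjusted p under 0.05, of which 5 were lower (*Tlr4*, *Tlr5*, *Tlr7*, *Tlr8* and *Tlr9*) and 2 higher (*Tlr6* and *Tlr13*). Over all genes 25.7% passed here, 13% lower and 12.7% higher. The receptors had a median log2 fold change of -0.45, against 0.0013 over all genes, and 8 of them had no overlap between the groups, where 41.7% of all genes had none. Because both comparisons use the same controls, a control library that is high or low for a receptor shifts both values in the same direction.

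**Figure D1:**
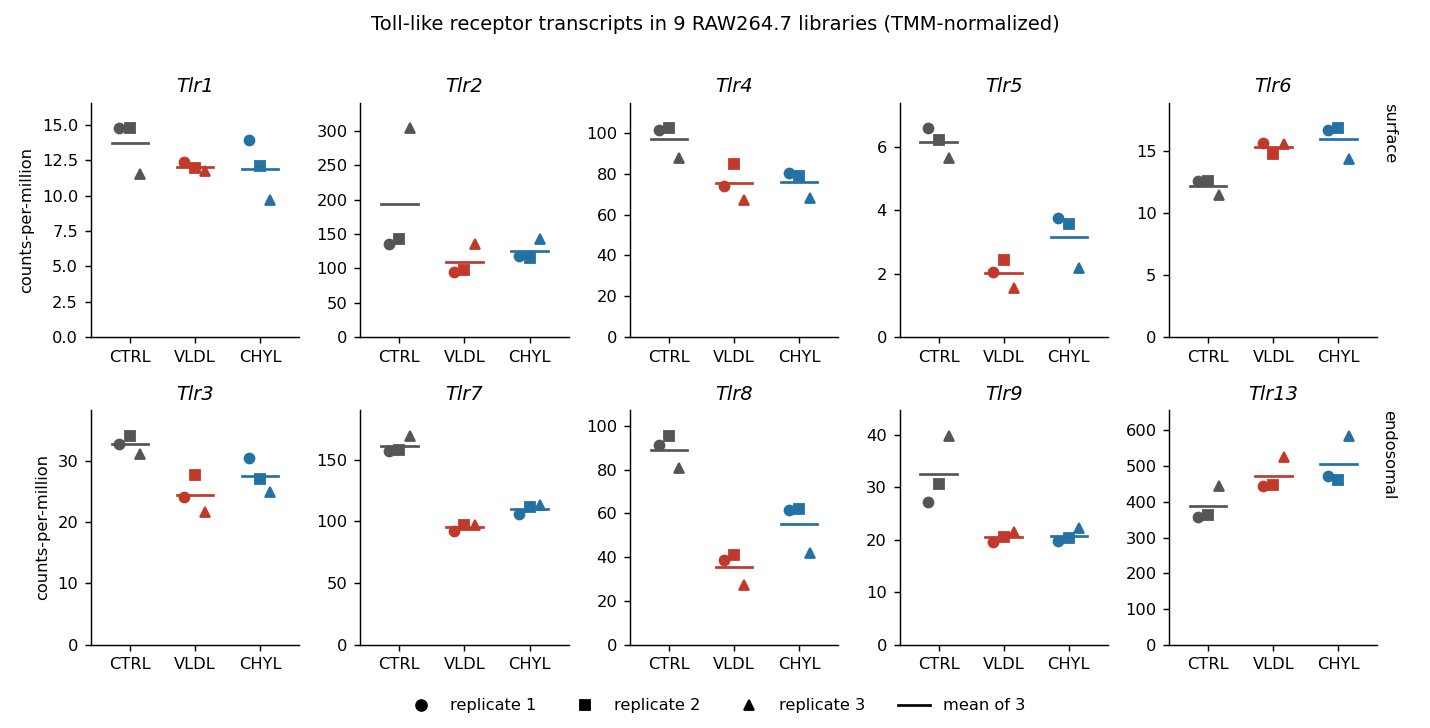
TMM-normalized counts-per-million of each receptor in the 9 libraries, with surface receptors in the top row and endosomal receptors in the bottom row. Points are libraries, their shape gives the replicate number, and bars are means of 3. *Tlr5* and *Tlr8* have the lowest VLDL-sized means relative to CTRL, and the control library of replicate 3 lies at 304 cpm for *Tlr2*, far above the other CTRL libraries.

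Among the surface receptors, *Tlr5* (ENSMUSG00000079164, GRCm38 chromosome 1 from 182954788 to 182976044), which encodes the flagellin receptor, had the largest fall. It had 6.60, 6.24 and 5.66 cpm in the CTRL libraries, 2.05, 2.43 and 1.55 cpm after VLDL-sized particles and 3.77, 3.56 and 2.19 cpm after CHYL-sized particles. These correspond to 132 to 157 counts in CTRL, 34 to 54 after VLDL-sized and 48 to 85 after CHYL-sized particles. Every treated library was below every CTRL library. The log2 fold change was -1.63 (standard error 0.22, adjusted p = 0.00027) for VLDL-sized and -0.99 (standard error 0.20, adjusted p = 0.00412) for CHYL-sized particles, equal to 0.324 and 0.504 of the control level.

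*Tlr4* (ENSMUSG00000039005, chromosome 4 from 66827584 to 66930284), the lipopolysaccharide receptor gene, had 101, 103 and 87.9 cpm in CTRL, 74.1, 84.8 and 67.3 cpm after VLDL-sized particles and 80.6, 78.8 and 68.4 cpm after CHYL-sized particles. Neither treated group overlapped with CTRL. The log2 fold changes were -0.37 (standard error 0.10, adjusted p = 0.0116) and -0.36 (standard error 0.10, adjusted p = 0.0187). The second call was lost without CTRL replicate 1 (adjusted p = 0.0688), CTRL replicate 2 (0.0684) or CHYL-sized replicate 3 (0.0639).

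For *Tlr2* (ENSMUSG00000027995, chromosome 3 from 83836272 to 83841767), the receptor gene for bacterial lipopeptides, 1 library decided the size of the difference. CTRL had 135.3, 142 and 304 cpm, from 3218, 3377 and 7094 counts, VLDL-sized libraries had 94.9, 98.0 and 135.0 cpm and CHYL-sized libraries 118, 114 and 143 cpm. Thus replicate 3 was the highest library of each group, and the gap was widest in CTRL. With all libraries *Tlr2* did not pass. Its log2 fold changes were -0.74 after VLDL-sized particles, with a standard error of 0.27 (adjusted p = 0.0518), and -0.54 after CHYL-sized particles, with a standard error of 0.26 (adjusted p = 0.169). Without CTRL replicate 3 the values were -0.36 (adjusted p = 0.0764) and -0.16 (adjusted p = 0.458). In the libraries of replicates 1 and 2 alone, where the groups hold 2 libraries each, they were -0.52 (adjusted p = 1.24e-06) and -0.26 (adjusted p = 0.000909). Over all 20 alternatives the VLDL-sized value of *Tlr2* passed in 12. A model with the replicate number as a block gave -0.75 (adjusted p = 0.000531) for VLDL-sized particles. With a term for replicate 3 alone, *Tlr2* passed in both comparisons, at -0.75 (adjusted p = 0.000193) and -0.56 (adjusted p = 0.00256). Within replicate 3, the log2 ratio to CTRL was -1.17 after VLDL-sized and -1.09 after CHYL-sized particles, against -0.51 and -0.20 within replicate 1.

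The partner receptors of TLR2 differed in direction. *Tlr1* (ENSMUSG00000044827, chromosome 5 from 64924679 to 64933563), which pairs with TLR2 for triacylated lipopeptides, had 14.8, 14.8 and 11.5 cpm in CTRL, 12.3, 12.0 and 11.8 cpm after VLDL-sized particles and 14.0, 12.1 and 9.68 cpm after CHYL-sized particles. The groups overlapped, and the log2 fold changes of -0.18 (95% interval -0.48 to 0.13, adjusted p = 0.35) and -0.21 (95% interval -0.51 to 0.10, adjusted p = 0.311) did not pass. *Tlr6* (ENSMUSG00000051498, chromosome 5 from 64952031 to 64960097), which pairs with TLR2 for diacylated lipopeptides, had 12.6, 12.6 and 11.4 cpm in CTRL, 15.6, 14.8 and 15.6 cpm after VLDL-sized particles and 16.6, 16.9 and 14.3 cpm after CHYL-sized particles. All treated libraries were above all CTRL libraries, with log2 fold changes of 0.33 (standard error 0.09, adjusted p = 0.0146) and 0.38 (standard error 0.09, adjusted p = 0.00885). Scaled by library size only, the VLDL-sized value was 0.24 and did not pass (adjusted p = 0.0763). Without replicate 3, *Tlr1* passed after VLDL-sized particles at -0.28 (adjusted p = 0.0292).

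*Tlr1* and *Tlr6* are neighbours on the minus strand of chromosome 5 and share a part of their coding sequence, so that reads from that part can be split between them in the estimated counts. Of 3322 different stretches of 31 bases in the *Tlr1* transcripts, 607 also occur in *Tlr6* transcripts. The longest identical coding stretch spans 229 bases, positions 1468 to 1696 of the 2385 coding bases of *Tlr1* and 1507 to 1735 of the 2418 of *Tlr6*, counted from the start codon in the GENCODE transcripts of GRCm38. It is shown because a read pair that lies wholly within it cannot tell the genes apart, in lower case 5′ to 3′ along the coding strand.
Tlr1 and Tlr6: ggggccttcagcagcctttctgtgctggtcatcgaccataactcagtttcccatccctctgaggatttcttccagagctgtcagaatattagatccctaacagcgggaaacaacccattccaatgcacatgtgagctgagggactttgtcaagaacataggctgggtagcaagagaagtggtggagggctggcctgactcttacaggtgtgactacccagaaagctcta
Summed over both genes, the counts were 651, 650.0 and 535 in CTRL, 613, 595 and 601 after VLDL-sized particles and 691, 643 and 527 after CHYL-sized particles. The groups overlapped in this sum. *Tlr6* held 46.0% to 49.8% of it in CTRL, 55.2% to 57.0% after VLDL-sized and 54.4% to 59.7% after CHYL-sized particles, without overlap between CTRL and either treated group.

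Among the endosomal receptors, *Tlr8* (ENSMUSG00000040522, chromosome X from 167242696 to 167264329) had the largest fall. It had 91.1, 95.6 and 80.8 cpm in CTRL, 38.7, 40.9 and 27.4 cpm after VLDL-sized particles and 61.4, 62.1 and 42.0 cpm after CHYL-sized particles. No treated library reached the CTRL range. The log2 fold change was -1.34 (standard error 0.17, adjusted p = 0.000152) for VLDL-sized and -0.71 (standard error 0.16, adjusted p = 0.00753) for CHYL-sized particles.

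*Tlr7* (ENSMUSG00000044583, chromosome X from 167304929 to 167330558), the neighbour of *Tlr8* and a receptor gene for single-stranded RNA, had 157, 158 and 169.6 cpm in CTRL, 92.0, 96.8 and 97.3 cpm after VLDL-sized particles and 106, 112 and 113 cpm after CHYL-sized particles. The 3 groups were all separate. With standard errors of 0.05, *Tlr7* had the most precise values of the family, at log2 fold changes of -0.76 (adjusted p = 2.37e-06) and -0.55 (adjusted p = 3.38e-05).

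The DNA receptor gene *Tlr9* (ENSMUSG00000045322, chromosome 9 from 106222598 to 106226883), whose product binds unmethylated CpG motifs, had 27.2, 30.6 and 39.8 cpm in CTRL, 19.4, 20.5 and 21.4 cpm after VLDL-sized particles and 19.8, 20.2 and 22.1 cpm after CHYL-sized particles. All treated libraries lay below CTRL, and the treated groups lay on top of each other. The log2 fold changes were -0.65 (standard error 0.13, adjusted p = 0.0025) and -0.63 (standard error 0.13, adjusted p = 0.00427).

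*Tlr3* (ENSMUSG00000031639, chromosome 8 from 45395665 to 45411080), the receptor gene for double-stranded RNA, had 32.8, 34.2 and 31.3 cpm in CTRL, 24.1, 27.8 and 21.7 cpm after VLDL-sized particles and 30.5, 27.1 and 24.9 cpm after CHYL-sized particles. Both treated groups were below CTRL without overlap, although CHYL-sized replicate 1 came close to it. After VLDL-sized particles the log2 fold change was -0.42 (standard error 0.10, adjusted p = 0.00669). After CHYL-sized particles it did not pass, at -0.25 with a standard error of 0.10 (adjusted p = 0.0767). This second value passed without CHYL-sized replicate 1 (-0.34, adjusted p = 0.0446), without replicate 3 (-0.22, adjusted p = 0.0462) and when scaled by library size only (-0.34, adjusted p = 0.0363). It also passed with a term for replicate 3 in the model (-0.25, adjusted p = 0.00718). An antisense gene, *Gm45542*, shares 326 of the 5341 stretches of 31 bases of *Tlr3*, and it had at most 1.66 counts in any library.

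*Tlr13* (ENSMUSG00000033777, chromosome X from 106143204 to 106160493), a mouse receptor gene for bacterial ribosomal RNA, moved the other way. It had 358, 362 and 444 cpm in CTRL, 444, 447 and 526 cpm after VLDL-sized particles and 473, 461 and 586 cpm after CHYL-sized particles. Treated libraries were above CTRL, but VLDL-sized replicate 1 lay level with CTRL replicate 3, the highest control. The log2 fold change after VLDL-sized particles was 0.29 (standard error 0.11, adjusted p = 0.0668), which did not pass in the limma-voom fit of all libraries. It passed in DESeq2 with all libraries (0.28, adjusted p = 0.0408). It also passed with the replicate number as a block (0.29, adjusted p = 3.07e-05), where 47.9% of all genes passed, and with a term for replicate 3 (0.29, adjusted p = 6.78e-06). The value passed as well without CTRL replicate 3 (0.39, adjusted p = 0.0181), without CHYL-sized replicate 3 (0.29, adjusted p = 0.0311) and without all of replicate 3 (0.31, adjusted p = 3.48e-05). After CHYL-sized particles it was 0.38 (standard error 0.11, adjusted p = 0.0267), a call that was lost without CTRL replicate 1 (0.33, adjusted p = 0.102), CTRL replicate 2 (0.34, adjusted p = 0.0937) or CHYL-sized replicate 3 (0.28, adjusted p = 0.0839).

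With replicate 3 left out of every group, all 10 receptors passed after VLDL-sized particles, 8 lower and 2 higher, where 43.4% of the 12386 genes then tested passed. For CHYL-sized particles 9 passed, 7 lower and 2 higher, against 33.8% of all genes. Against CTRL, no receptor changed direction under any of the alternatives tried.

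**Figure D2:**
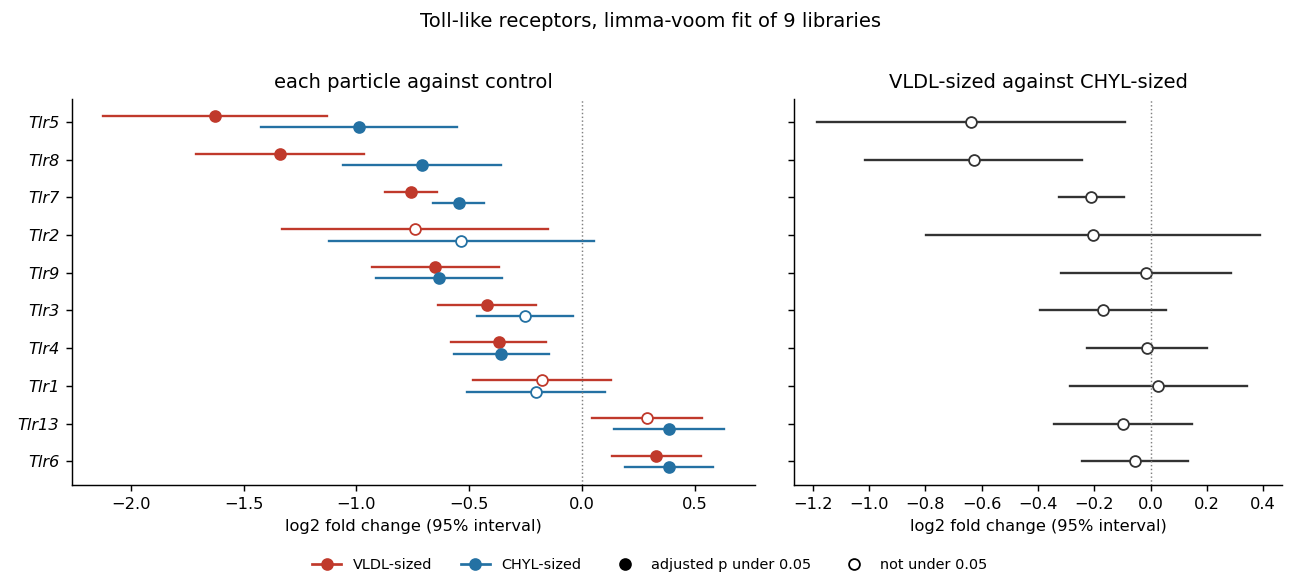
Log2 fold changes of the 10 receptors with 95% intervals from the limma-voom fit, for each particle against CTRL on the left and for VLDL-sized against CHYL-sized on the right. Filled points have an adjusted p under 0.05; the values run from -1.63 for *Tlr5* after VLDL-sized particles to 0.38 for *Tlr6* and *Tlr13* after CHYL-sized particles, and no point on the right is filled.

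Whether the particles differed in their effect was asked by comparing the treated groups directly. With all 9 libraries none of the 10 receptors passed (adjusted p from 0.508 to 0.993), and 0% of all genes did. At an unadjusted p under 0.05 there were 3 receptors, *Tlr5*, *Tlr7* and *Tlr8*, all lower after VLDL-sized than after CHYL-sized particles, where 813 of all genes (6.43%) reached that level. DESeq2 called 1 receptor, *Tlr8*, and gave no adjusted p for 5 others. It called 24 of the 6022 genes to which it gave an adjusted p (0.399%). The edgeR quasi-likelihood test called none of the receptors and 0% of all genes. Groups did not overlap for *Tlr7* and *Tlr8*, 2 of 10 receptors, against 11.3% of all genes. For *Tlr8*, at 35.7 ± 7.24 cpm after VLDL-sized and 55.2 ± 11.4 cpm after CHYL-sized particles (SD, n = 3), the difference was -0.63 on the log2 scale with a 95% interval of -1.02 to -0.24. *Tlr7* had -0.21 (95% interval -0.32 to -0.10) and *Tlr5* -0.64 (95% interval -1.19 to -0.09), the latter with overlapping groups. Between libraries of the same replicate number, *Tlr8* differed by -0.66, -0.60 and -0.62 and *Tlr7* by -0.21, -0.20 and -0.22 on the log2 scale. With a term for replicate 3 both passed (adjusted p = 0.00208 and 0.0209), where 1.89% of all genes passed.

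For the other receptors the intervals of the particle difference included 0. They were narrowest for *Tlr6*, at -0.24 to 0.13, and *Tlr4*, at -0.23 to 0.20, and widest for *Tlr2*, at -0.80 to 0.39. Without replicate 3, *Tlr8* passed with a difference of -0.63 (adjusted p = 0.000246) and *Tlr2* with -0.26 (adjusted p = 0.0139), while 2.07% of all genes passed. *Tlr5* did not pass in this setting either (-0.71, adjusted p = 0.0951), nor did *Tlr7* (-0.21, adjusted p = 0.0574).

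Promoters of the receptors were read from RefSeq on GRCm38.p6, as the 250 bases before the annotated start. RefSeq starts can differ from the GENCODE gene ends given above. They lay 159 bases inside the gene for *Tlr2* and 71 for *Tlr13*, so these windows include the first bases of the GENCODE gene. The start of *Tlr3* lay 700 bases inside, 1 of *Tlr1* 864 and 1 of *Tlr6* 931, so these windows lie wholly within the gene. Starts were found for 8 of the 10 receptors, with a pair of starts each for *Tlr1* and *Tlr6*. *Tlr4* and *Tlr7* had no entry. Shown are those of *Tlr5* and *Tlr8*, the receptors with the largest falls, of *Tlr2*, whose control libraries varied most, and of *Tlr13*, the most abundant receptor and one that was higher after the particles. All are written 5′ to 3′ on the strand of the gene, in lower case with motif matches in capitals.
Tlr5 promoter, chr1:182954538-182954787, plus strand: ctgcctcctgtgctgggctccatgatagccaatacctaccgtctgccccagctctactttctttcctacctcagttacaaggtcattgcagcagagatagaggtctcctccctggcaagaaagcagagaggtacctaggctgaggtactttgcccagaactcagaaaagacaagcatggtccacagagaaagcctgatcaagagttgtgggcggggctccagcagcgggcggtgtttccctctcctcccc
Tlr8 promoter, chrX:167264330-167264579, minus strand: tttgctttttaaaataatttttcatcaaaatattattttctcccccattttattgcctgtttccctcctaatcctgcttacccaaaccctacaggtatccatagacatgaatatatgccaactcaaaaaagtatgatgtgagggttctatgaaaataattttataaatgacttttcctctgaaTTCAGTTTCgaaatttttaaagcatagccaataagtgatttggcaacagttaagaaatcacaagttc
Tlr2 promoter, chr3:83841609-83841858, minus strand: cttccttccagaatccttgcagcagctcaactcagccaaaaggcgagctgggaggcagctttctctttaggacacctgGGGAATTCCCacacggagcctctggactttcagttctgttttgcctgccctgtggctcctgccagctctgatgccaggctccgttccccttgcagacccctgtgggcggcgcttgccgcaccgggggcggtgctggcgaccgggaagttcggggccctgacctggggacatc
Tlr13 promoter, chrX:106143025-106143274, plus strand: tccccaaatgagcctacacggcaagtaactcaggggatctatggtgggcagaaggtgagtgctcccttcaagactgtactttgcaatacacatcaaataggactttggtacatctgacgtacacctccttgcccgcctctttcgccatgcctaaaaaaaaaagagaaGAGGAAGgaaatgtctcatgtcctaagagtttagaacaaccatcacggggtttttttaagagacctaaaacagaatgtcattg
The motifs were searched on both strands: PU.1 as GAGGAAG, NF-κB as GGGANTTCC, AP-1 as TGANTCA, the interferon-stimulated response element (ISRE) as GAAANNGAA, the cyclic AMP response element (CRE) as TGACGTCA and the antioxidant response element (ARE) as TGACNNNGC. Matches of AP-1 and ARE can overlap. In 32851 promoter windows of the same length, 10.6%, 1.43%, 6.75%, 7.13%, 1.55% and 10.2% held them in that order. The *Tlr2* window held NF-κB letters on both strands at 1 position, *Tlr8* an ISRE match on the opposite strand and *Tlr13* a PU.1 match, and the *Tlr5* window held none. Of the windows not shown, 1 of *Tlr1* held PU.1 letters and that of *Tlr9* PU.1, AP-1 and ARE letters. The *Tlr6* window that lies wholly within the gene held a pair of overlapping ISRE matches. That of *Tlr3*, also within the gene, held none. These matches describe letters and were not tested for binding. *Tlr5* and *Tlr8*, which changed most, shared no motif of this set.

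Levels of different receptors were compared as cpm per kilobase of annotated exon. In CTRL, *Tlr13* was the most abundant at 90.1 ± 11.2 (SD, n = 3), and *Tlr2* followed at 64.3 ± 31.7. Their libraries overlapped, since CTRL replicate 3 had 101 for *Tlr2*. Next were *Tlr7* at 39.5 ± 1.75, *Tlr8* at 24.9 ± 2.11 and *Tlr4* at 17.5 ± 1.46. Lower levels were those of *Tlr9* at 9.36 ± 1.88, *Tlr3* at 6.29 ± 0.285, *Tlr1* at 4.09 ± 0.563, *Tlr6* at 3.27 ± 0.184 and *Tlr5* at 1.29 ± 0.0993. Apart from *Tlr13* and *Tlr2*, no neighbours in this order overlapped between control libraries, although *Tlr1* (lowest library 3.44) and *Tlr6* (highest library 3.38) nearly touched. Among all genes tested, *Tlr13* exceeded 95.9% and *Tlr5* exceeded 22.8% in control.

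Part of this order changed after the particles. *Tlr8* was above *Tlr4* in CTRL but below it after VLDL-sized particles, at 9.94 ± 2.02 against 13.6 ± 1.58 cpm per kilobase (SD, n = 3), without overlap. After CHYL-sized particles *Tlr8* and *Tlr4* overlapped, at 15.4 ± 3.17 and 13.7 ± 1.19. *Tlr6* was above *Tlr1* after VLDL-sized particles, at 4.11 ± 0.132 against 3.60 ± 0.0888 without overlap, and they overlapped after CHYL-sized particles. Scaling by the longest annotated transcript in place of all exons gave *Tlr4* a higher control level of 23.9 but the same order of means in CTRL and after VLDL-sized particles. On that scale the CTRL libraries of *Tlr8* (23.6 to 27.9) and *Tlr4* (21.6 to 25.2) overlapped, so the change of order between them rests on the length used. After CHYL-sized particles it put *Tlr4* above *Tlr8*, at 18.6 and 16.1, and *Tlr3* above *Tlr9*.

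**Figure D3:**
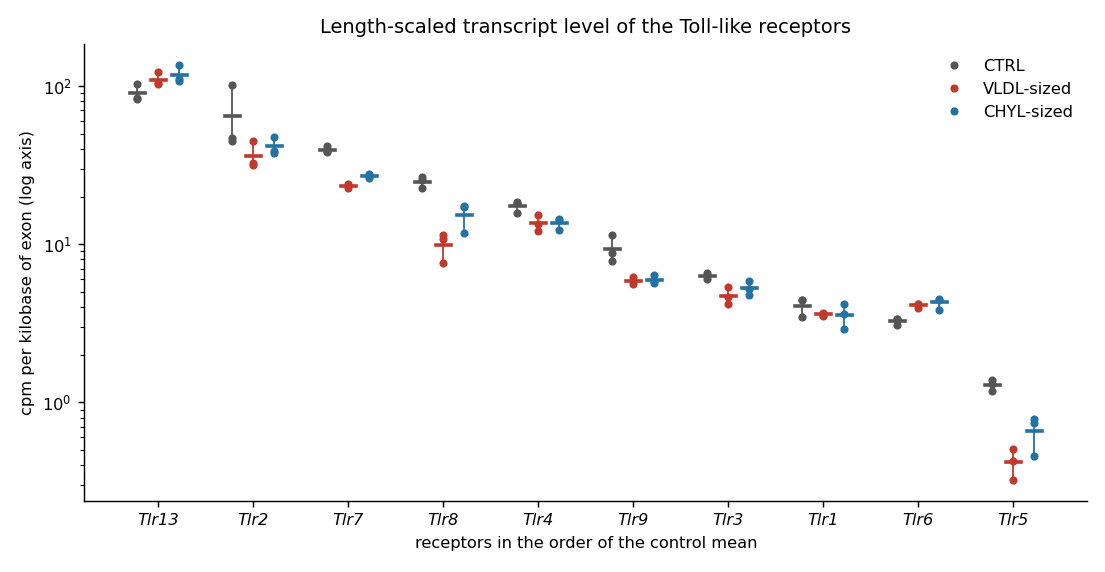
Transcript level of the receptors as cpm per kilobase of annotated exon on a log axis, in the order of the control mean. Points are libraries, vertical lines their range and horizontal bars means of 3; levels run from 1.29 for *Tlr5* to 90.1 for *Tlr13* in CTRL, and the VLDL-sized libraries of *Tlr8* lie below those of *Tlr4*.

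Patterns over the 9 libraries were compared by Pearson's r of log2 cpm, as a description, since all genes share the same libraries and the same controls. *Tlr5* and *Tlr8* had an r of 0.991, and *Tlr5* was the second closest of all tested genes to *Tlr8*, after *Dennd1c* (0.992). *Tlr3*, *Tlr4*, *Tlr5* and *Tlr8* had an r of 0.877 to 0.991 with each other, and *Tlr2*, *Tlr7* and *Tlr9* of 0.744 to 0.918. These were not separate sets. *Tlr7* had an r of 0.894 with *Tlr5*, 0.871 with *Tlr8*, 0.789 with *Tlr3* and 0.757 with *Tlr4*, against 0.744 with *Tlr2*. *Tlr6* was negative to all the other receptors except *Tlr13* (0.492). Genes closest to *Tlr7* were *P2ry6* (0.998) and *Uhrf1* (0.996), those closest to *Tlr5* *Tfdp2* (0.996) and *Cdc42ep3* (0.994), and those closest to *Tlr9* *Itga9* (0.992) and *Clec12a* (0.986). The closest genes were *Ctnnd1* for *Tlr3* (0.990), *Clcn5* for *Tlr4* (0.989), *Atrnl1* for *Tlr1* (0.987), *Srrm1* for *Tlr2* (0.986) and *Med7* for *Tlr6* (0.983).

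The other genes of the pathway did not move as a block. Of 89 genes in the lists for co-receptors, folding and trafficking, adaptors and kinases, transcription factors, negative regulators and inducible targets, with *Tlr11* and *Tlr12*, 79 were tested. After VLDL-sized particles 42 of the 79 passed, 20 higher and 22 lower, where 35.6% of all genes passed, and after CHYL-sized particles 35 passed, 17 higher and 18 lower, against 25.7%. Without CTRL replicate 1, CTRL replicate 2 or CHYL-sized replicate 1 the second count was 23, 22 and 22, where 18.5%, 18.9% and 20.2% of all genes passed. Scaled by library size only, the counts were 15 higher and 26 lower for VLDL-sized and 11 higher and 24 lower for CHYL-sized particles. With this scaling 38.1% and 28.3% of all genes passed, and the median of all genes shifted to -0.0935 and -0.0788. The median log2 fold change of the 79 genes was 0.04 and 0.06.

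Among the ligand co-receptors, 5 of 6 were tested, with 1 higher and 2 lower after VLDL-sized particles, where 35.6% of all genes passed. *Cd14*, which delivers lipopolysaccharide to TLR4, had 815, 797 and 852 cpm in CTRL, 558, 552 and 586 cpm after VLDL-sized and 555, 606 and 625 cpm after CHYL-sized particles, with log2 fold changes of -0.54 (standard error 0.05, adjusted p = 3.69e-05) and -0.47 (standard error 0.05, adjusted p = 0.000162). *Ly96*, whose product MD-2 binds lipopolysaccharide beside TLR4, went from 7.85 ± 1.20 to 11.3 ± 1.61 and 11.4 ± 0.427 cpm (SD, n = 3), at 0.52 and 0.54. Its calls were lost without VLDL-sized replicate 2 (adjusted p = 0.0532) or without replicate 3 (0.0541) in the first comparison, and without CHYL-sized replicate 1 (0.0523) in the second. *Cd180*, which encodes the related receptor RP105, fell by 0.22 on the log2 scale after VLDL-sized particles (adjusted p = 0.00321) and had -0.13 after CHYL-sized particles (adjusted p = 0.0642). The CHYL-sized count of this list was 2 higher and 1 lower, where 25.7% of all genes passed. One of the higher genes was *Cd36*, a scavenger receptor gene for fatty acids and oxidized lipids, named here after its values were seen. *Cd36* had 2, 1 and 5 counts in CTRL, 7, 2 and 11 after VLDL-sized and 7, 11 and 13 after CHYL-sized particles. It entered the test only through treated libraries, and DESeq2 did not call it after CHYL-sized particles (adjusted p = 0.064), so no difference is read from it. The partner of *Cd180*, *Ly86*, had -0.06 and -0.01 (adjusted p = 0.519 and 0.916).

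All 12 genes for folding, trafficking and processing were tested. After VLDL-sized particles 5 were higher and 3 lower, where 35.6% of all genes passed. After CHYL-sized particles 4 were higher and 3 lower, against 25.7%. *Unc93b1*, which carries the nucleic acid-sensing receptors to the endosome, went from 323 ± 8.42 to 289 ± 4.60 and 284 ± 4.91 cpm (SD, n = 3), at log2 fold changes of -0.16 (adjusted p = 0.0134) and -0.19 (adjusted p = 0.00866). The first call was lost without CTRL replicate 1 (adjusted p = 0.0533). *Cnpy3* and *Cnpy4*, chaperone genes for Toll-like receptors, fell after VLDL-sized particles by 0.23 and 0.30 on the log2 scale (adjusted p = 0.00499 and 0.00523). *Rab7b*, a small GTPase of the late endosome, rose from 49.7 ± 15.1 to 115 ± 32.6 and 105 ± 29.9 cpm, at 1.22 (adjusted p = 0.00357) and 1.08 (adjusted p = 0.00991). Replicate 3 was again the highest library in each group for *Rab7b*. *Ap3b1*, a subunit of an endosomal adaptor complex, rose by 0.25 after VLDL-sized particles (adjusted p = 0.00283).

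Among the 23 adaptors and signalling kinases, 8 were higher and 2 lower after VLDL-sized particles, and 6 higher and 2 lower after CHYL-sized particles. The shares of all genes that passed were 35.6% and 25.7%. *Myd88*, the adaptor shared by most of the receptors, had 83.3, 85.8 and 86.5 cpm in CTRL, 69.2, 71.4 and 75.9 cpm after VLDL-sized and 70.0, 73.8 and 78.2 cpm after CHYL-sized particles, with log2 fold changes of -0.24 (adjusted p = 0.00678) and -0.21 (adjusted p = 0.0207). *Ticam1*, which encodes TRIF, the adaptor of TLR3, had 21.4, 21.1 and 19.1 cpm in CTRL, 41.9, 37.2 and 37.2 cpm after VLDL-sized and 32.3, 32.2 and 32.2 cpm after CHYL-sized particles. It rose by 0.91 (standard error 0.07, adjusted p = 6.56e-06) and 0.65 (standard error 0.07, adjusted p = 0.000117). Thus the adaptor gene of TLR3 was higher and the other lower, without overlap between treated and CTRL libraries. *Ikbkg*, the regulatory subunit NEMO of the IκB kinase, rose from 35.9 ± 0.266 to 63.6 ± 0.725 and 65.4 ± 2.62 cpm (SD, n = 3), at 0.83 (adjusted p = 1.5e-06) and 0.87 (adjusted p = 1.37e-06). *Pik3ap1*, an adaptor to PI3 kinase, rose by 0.45 in both comparisons (adjusted p = 5e-05 and 8.45e-05), and *Tab1* fell by 0.50 after VLDL-sized particles (adjusted p = 0.00144).

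Of the 11 transcription factors, 7 were lower and 1 higher after VLDL-sized particles, where 35.6% of all genes passed. After CHYL-sized particles 5 were lower and 1 higher, against 25.7%. The median log2 fold changes of this list were -0.25 and -0.15. *Irf8*, a factor of myeloid cells, had 125, 121 and 114 cpm in CTRL, 82.7, 82.9 and 67.8 cpm after VLDL-sized and 99.7, 94.7 and 74.2 cpm after CHYL-sized particles, at -0.63 (standard error 0.11, adjusted p = 0.00127) and -0.43 (standard error 0.11, adjusted p = 0.0143). *Irf1* fell from 32.8 ± 1.14 to 18.6 ± 2.59 and 23.2 ± 2.76 cpm (SD, n = 3), at -0.82 (adjusted p = 0.000192) and -0.51 (adjusted p = 0.00453). *Nfkb1*, the gene of the NF-κB subunit p50, fell by 0.35 and 0.31 on the log2 scale (adjusted p = 0.00165 and 0.00561). *Irf7* had -0.47 after VLDL-sized particles (adjusted p = 0.0448), a call lost without CTRL replicate 3, VLDL-sized replicate 1, VLDL-sized replicate 3 or CHYL-sized replicate 1 (adjusted p from 0.0598 to 0.128). Without all of replicate 3 it was -0.23 (adjusted p = 0.11).

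The negative regulators, of which 15 were tested, gave 4 higher and 2 lower after VLDL-sized particles, where 35.6% of all genes passed. After CHYL-sized particles they gave 3 higher and 2 lower, against 25.7%. With the replicate block the VLDL-sized count was 7 higher and 3 lower, where 47.9% of all genes passed against 35.6% without it. *Tnip1*, *Tnip3*, *Tnfaip3* and *Cyld* were among the regulators that then passed (adjusted p = 3e-04, 4.51e-05, 0.0149 and 0.0405). *Dusp1*, a phosphatase that switches off MAP kinases, had 21.1, 19.8 and 23.6 cpm in CTRL, 96.2, 84.1 and 111 cpm after VLDL-sized and 56.5, 57.9 and 93.5 cpm after CHYL-sized particles, at log2 fold changes of 2.17 (standard error 0.20, adjusted p = 1.9e-05) and 1.65 (standard error 0.20, adjusted p = 0.000217). *Irak3*, which encodes the inhibitory kinase IRAK-M, fell from 20.1 ± 0.666 to 12.2 ± 0.765 and 13.2 ± 1.39 cpm (SD, n = 3), at -0.72 (adjusted p = 0.000144) and -0.61 (adjusted p = 0.000601). These 2 inhibitors therefore moved in opposite directions. *Sigirr* had -0.39 and -0.42 (adjusted p = 0.0315 and 0.0314), calls that were lost without CTRL replicate 1 or 2, without VLDL-sized replicate 1 or 3 in the first comparison and without CHYL-sized replicate 1 or 3 in the second (adjusted p up to 0.107). Without all of replicate 3 neither passed (adjusted p = 0.0963 and 0.0697). *Peli3*, at 0.774 ± 0.418 cpm in CTRL, had 1.35 after VLDL-sized (adjusted p = 0.0141) and 0.63 after CHYL-sized particles (adjusted p = 0.272).

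Inducible target genes of the receptors moved in both directions. Of 20, 13 were tested, with 1 higher and 6 lower after VLDL-sized and 1 higher and 5 lower after CHYL-sized particles. Beside these, 35.6% and 25.7% of all genes passed. With the replicate block the VLDL-sized count was 4 higher and 6 lower, where 47.9% of all genes passed. *Il12b*, *Ifnb1*, *Cxcl1* and *Csf3* had 0 counts in all 9 libraries, while *Il1b* had at most 3 and *Il6* at most 4. *Ptgs2*, the gene of cyclooxygenase 2, was the one that passed upward, and the chemokine genes *Ccl2* and *Cxcl10* were among those that fell after both particles. The chemokine gene *Cxcl2*, named after its values were seen, had larger log2 fold changes than *Ptgs2*, at 1.45 and 1.32, with overlapping groups and no call (adjusted p = 0.068 and 0.118). It had 27, 17 and 99 counts in CTRL, with replicate 3 far above the others, and without replicate 3 it passed at 1.80 and 1.75 (adjusted p = 9.67e-05 and 0.000196). With the block *Cxcl2*, *Acod1* and *Ccl5* passed upward after VLDL-sized particles (adjusted p = 0.00232, 0.0348 and 0.0486). *Marcksl1*, an inducible gene of activated macrophages, had 85.1, 86.7 and 122 cpm in CTRL, 57.5, 60.0 and 61.4 cpm after VLDL-sized and 71.9, 80.3 and 68.3 cpm after CHYL-sized particles. Treated libraries were below CTRL, at log2 fold changes of -0.69 (standard error 0.12, adjusted p = 0.00147) and -0.40 (standard error 0.12, adjusted p = 0.0359). After CHYL-sized particles the calls of *Cnpy3*, *Cnpy4*, *Ap3b1*, *Myd88*, *Tab1*, *Irf8*, *Sigirr*, *Cxcl10* and *Marcksl1* were each lost on leaving out at least 1 of CTRL replicates 1, 2 and 3, VLDL-sized replicates 1 and 2 and CHYL-sized replicates 1, 2 and 3, with adjusted p of at most 0.151 in those fits.

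**Figure D4:**
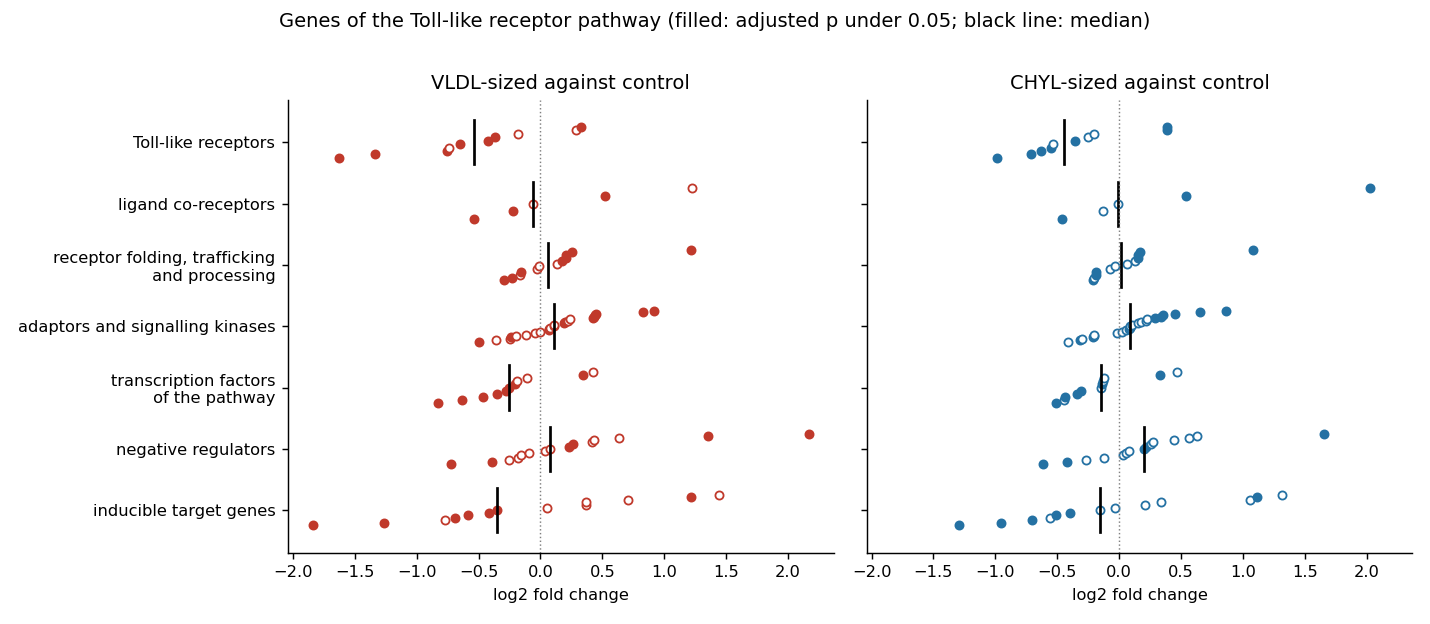
Log2 fold changes of the tested genes of the receptors and of 6 pathway lists, VLDL-sized against CTRL on the left and CHYL-sized against CTRL on the right. Each point is a gene, filled where the adjusted p is under 0.05, and black lines are medians; the receptors have medians of -0.54 and -0.45, and the adaptors and signalling kinases of 0.11 and 0.09.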

How the data were processed

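Paired-end RNAseq of 9 RAW264.7 libraries was quantified by the authors with Salmon 0.14.1 against mouse GRCm38.p6 transcripts, per the labels, and summed to genes with tximport. The deposited values are estimated counts per gene. Scaling for transcript length and depth is described in the study's methods, but 58.3% of values above 10 were whole numbers, so they were treated as unscaled. Sample groups and replicate numbers came from the labels.

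The test kept the 12637 of 54432 genes whose counts exceeded 10 in 3 or more libraries, which held 99.9% of counts. TMM factors from edgeR 4.0.16 and limma 3.58.1 (limma-voom, R 4.3.3) gave log2 fold changes over all 9 libraries, with Benjamini-Hochberg adjustment over all tested genes at 0.05. The counts per library, 22393893 to 22856792, set the counting precision. In simulated counts for VLDL-sized against CTRL (12474 genes), the fit recovered 75% of 64 genes changed by 0.5 on the log2 scale, 92.5% of 67 changed by 1 and 100% of 69 changed by 2. For CHYL-sized against CTRL the fit recovered 65.8% of 79 genes changed by 0.5. The changed genes were few and came from those with higher counts, and no effect shared by the replicate 3 libraries was simulated. These shares therefore do not hold for every tested gene of the data. Alternatives were the edgeR quasi-likelihood test and DESeq2 1.42.0 on rounded counts, limma-trend, other normalizations and filters, a replicate block, a term for replicate 3, and leaving out libraries.

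Pairing by replicate number was examined through the correlation of deviations from group means. For VLDL-sized against CTRL it was 0.138, 0.132 and 0.293 for replicates 1, 2 and 3, all over 0.1, so blocked values are given beside the receptors and lists of that comparison whose call changes or whose count moves by over 1.5 times. The labels do not state what the numbers share. No libraries were duplicates. Members, gene lists and tests were chosen with earlier results of these data known. Named pathway genes were the 4 of each list with the largest absolute log2 fold change among those passing for VLDL-sized particles, plus *Cd14*, *Ly96*, *Cd180*, *Ly86*, *Unc93b1*, *Myd88* and *Ticam1*. Levels per kilobase used the merged exons of the GENCODE annotation supplied for GRCm38. Promoters came from RefSeq on GRCm38.p6, in windows of 250 bases.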

Additional observations from a re-analysis of the deposited data

How the results depend on the processing

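Against CTRL, all 10 receptors kept their direction in every alternative run. The number passing ranged from 7 to 10 after VLDL-sized and from 5 to 9 after CHYL-sized particles when libraries were left out. Over the pathway genes the same leave-outs gave 34 to 55 and 22 to 48, while 27.8% to 43.4% and 18.5% to 33.8% of all genes passed. VLDL-sized against CHYL-sized gave 0 receptors with all libraries, 1 with DESeq2, 2 with a term for replicate 3 and 0 to 2 on leaving out libraries. Over all genes 0%, 0.399%, 1.89% and 0% to 2.07% passed in these settings. In this comparison the small differences changed sign, with ranges of -0.112 to 0.153 for *Tlr1*, -0.100 to 0.0659 for *Tlr4*, -0.0508 to 0.0312 for *Tlr9* and -0.178 to 0.0109 for *Tlr13*. *Ly86* after CHYL-sized particles ran from -0.0648 to 0.0361 on leaving out libraries. The cause of these changes was not tested.

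With the replicate block, 9 receptors passed for each particle against CTRL and 2 (*Tlr7* and *Tlr8*) between the particles, and 55 and 51 pathway genes passed. Over all genes, 47.9% passed with the block for VLDL-sized and 39.2% for CHYL-sized particles against CTRL, and 1.16% between particles. Same-numbered libraries correlated at 0.124, 0.0684 and 0.338 for CHYL-sized against CTRL and at 0.0286, 0.117 and 0.357 between the particles. At least 1 pair in each was under 0.1, so the numbers were not taken to pair the libraries there, although the libraries of replicate 3 correlated with each other. This cut cannot decide the pairing. The CTRL libraries are the same as in the VLDL-sized comparison, and VLDL-sized replicate 2 correlated at 0.116 with CTRL replicate 1, a different number. Not every library correlated best with its own number. With the block, *Tlr2* and *Tlr3* passed after CHYL-sized particles (-0.55 and -0.25, adjusted p = 0.0054 and 0.0119), and *Tlr8* and *Tlr7* between the particles (adjusted p = 0.00481 and 0.0347). *Tlr5* rests on 34 to 157 counts per library, the fewest of the receptors, which limits its precision.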
